A study of Mus musculus with 35 samples.

Results

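The poly(ADP-ribose) polymerase (PARP) genes described here are Parp1, Parp2, Parp3, Parp4, Parp8, Parp9, Parp10, Parp11, Parp12 and Parp14. They were taken by symbol from the count table and make up 10 of its 53379 genes. PMN-MDSC and M-MDSC, the granulocyte-like and the monocyte-like type of myeloid-derived suppressor cell, came from spleens and tumors of 8 female C57BL/6 mice with T110299 tumors in the pancreas, and bulk tumor was sequenced from untreated mice. T110299 is a single line from a genetically engineered mouse with a spontaneous pancreatic tumor driven by Ptf1a-Cre, which is active in pancreatic cells, and every group shared this tumor. In the treated arm, 4 mice received intravenous poly(I:C) complexed with polyethylenimine (poly(I:C)c) at 50 µg on days 18 and 20 after implantation. The 4 mice of the control arm are called untreated. The authors' methods give glucose as the control, but their results describe the sequenced control mice as left untreated. MDSC were CD11b+ cells sorted by flow cytometry as Ly6C low Ly6G+ (PMN-MDSC) or Ly6C high Ly6G- (M-MDSC), whereas bulk tumor was lysed whole. Libraries within a group came from separate mice.

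PARP proteins transfer ADP-ribose from NAD onto proteins or nucleic acids. PARP1 and PARP2 build polymers at DNA breaks, while most other members attach single units or, as PARP9, are known chiefly for working with a partner. Several members are induced by type I interferon, the cytokine that cells release when receptors such as MDA5 detect double-stranded RNA like poly(I:C).

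The promoters are shown first because treatment with a trigger of interferon is the main contrast here. Windows of 250 bases before to 50 after a start site were found for 7 of the 10 members (RefSeq, GRCm38.p6), and none was found for Parp9, Parp10 and Parp14. They were searched on both strands for the core of the interferon-stimulated response element (ISRE), which reads GAAA, any 2 bases and GAAA, and for the interferon-gamma activated site (GAS), TTCNNNGAA. The ISRE core occurred in the windows of 2 members, Parp4 and Parp11, and in 1126 of all 32817 windows (3.43%), and the GAS occurred in that of Parp11 and in 2722 of all windows (8.29%). A match is a run of letters and was not tested as a binding site. Only bases upstream of the start are printed, with ISRE cores in capitals. Parp11 is shown for its single ISRE core, which begins 44 bases upstream on the opposite strand and overlaps the GAS. Parp4 is shown for a pair of overlapping cores 150 and 144 bases upstream, with the stretch cut where the neighbouring gene Cenpj begins. Parp12, whose transcript changed most after treatment, is shown, up to the next annotated gene, although its window held neither motif.
Parp11 upstream, chr6:127446590-127446839, plus strand: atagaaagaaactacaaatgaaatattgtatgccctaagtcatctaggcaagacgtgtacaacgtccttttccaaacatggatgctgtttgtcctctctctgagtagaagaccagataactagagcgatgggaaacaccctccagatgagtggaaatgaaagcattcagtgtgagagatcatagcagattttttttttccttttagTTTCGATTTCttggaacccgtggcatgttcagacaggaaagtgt
Parp4 upstream, chr14:56575426-56575618, plus strand: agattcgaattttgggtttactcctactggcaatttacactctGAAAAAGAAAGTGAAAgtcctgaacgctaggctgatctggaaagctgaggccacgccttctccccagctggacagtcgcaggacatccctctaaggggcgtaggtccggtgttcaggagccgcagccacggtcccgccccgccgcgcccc
Parp12 upstream, chr6:39118350-39118472, minus strand: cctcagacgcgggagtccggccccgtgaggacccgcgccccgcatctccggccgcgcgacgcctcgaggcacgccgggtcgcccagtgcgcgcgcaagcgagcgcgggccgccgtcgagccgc

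On GRCm38 (GENCODE M21), Parp14 (chr16:35832874-35871544, minus strand) and Parp9 (chr16:35938470-35972605, plus strand) lie on either side of Dtx3l (chr16:35926511-35939151, minus strand), which encodes the ubiquitin ligase partner of PARP9. Parp9 and Dtx3l overlap by 682 bases at their starts on opposite strands, and fragments were counted by strand. Parp12 (chr6:39086410-39118349) and Parp11 (chr6:127446840-127494261) share a chromosome but are far apart. The other members lie at chr1:180568924-180601254 (Parp1), chr14:50807841-50821301 (Parp2), chr9:106470322-106476949 (Parp3), chr14:56575619-56659794 (Parp4), chr13:116854820-117025537 (Parp8) and chr15:76231174-76243441 (Parp10). Parp10 shares 1401 bases on the same strand with Plec, and Parp11 and Parp14 share 2330 and 1773 bases on the same strand with the unclassified transcripts Gm43633 and Gm49730, so that reads there could be divided between both genes of a pair.

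Of 35 libraries, 1 from M-MDSC of treated tumors held 10 counts and was left out, which leaves 9 groups of 4 libraries, or 3 for PMN-MDSC of treated spleens and M-MDSC of treated tumors. The 30 MDSC libraries held 793070 to 4357105 counts each and the 4 bulk tumor libraries 3771590 to 8886115. Levels are given as CPM, the counts of a gene relative to its library's total, with edgeR's TMM scaling over the 34 libraries. Ly6g, the gene of the sorting antigen, was at 37.5 to 101 CPM in PMN-MDSC of untreated and 360.4 to 470.1 CPM in those of treated spleens, at 0 to 8.98 CPM in those of untreated tumors and at 5.06 to 86.4 CPM in those of treated tumors, where 3 counts equal at most 1.76 CPM in the untreated tumor libraries. The summed CPM of 7 neutrophil markers was 13428 to 30179 in the untreated spleen PMN-MDSC and 962 to 3248 in the untreated tumor PMN-MDSC, and that of 5 macrophage markers was 272 to 779 and 2882 to 3537, so the tumor libraries labelled PMN-MDSC carried weak neutrophil and strong macrophage signal. One M-MDSC library of treated tumors held 2.72 CPM of Ly6c2 against 409 and 584 in the other 2, and 7340 CPM of macrophage markers against 1650 and 3186. Results of members that rest on it, and calls of other genes that change without it, are given with and without it. The RNA comes from many cells at once, so that a lower level from fewer cells of a type cannot be told apart from less RNA per cell.

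The first question was whether poly(I:C)c treatment changed PARP transcripts in each MDSC population. Parp9, Parp10, Parp11, Parp12 and Parp14, the members best known as interferon-inducible, were higher on average in treated than in untreated mice in all 4 populations, and Parp1 and Parp8 were lower on average in all 4, with 1 call between them. Parp2, Parp3 and Parp4 had no common direction. All 10 members were tested, except that Parp2 averaged under 25 counts in spleen PMN-MDSC, which left 9 there. By edgeR's quasi-likelihood test at an adjusted p under 0.05, 4 rose and 1 fell in spleen PMN-MDSC and 2 rose in tumor PMN-MDSC. In M-MDSC, 5 rose in spleen and 1 rose in tumor. Over all genes tested, 6.10% rose and 5.52% fell in spleen PMN-MDSC, 2.29% and 1.07% in tumor PMN-MDSC, 9.96% and 9.48% in spleen M-MDSC, and 1.82% and 1.06% in tumor M-MDSC. The median change of the members measured was 1.32, 0.50, 0.49 and 0.37 on the log2 scale in that order, beside 0.01, 0.01, -0.03 and 0.00 over all genes tested. The first of these medians leaves out Parp2, whose log2 change was -0.98 when lowly counted genes were kept. Under the stricter rule of an adjusted p under 0.001 and at least 2-fold, the calls were 0, 0, 1 (Parp9) and 0 members, beside 0.0413%, 0.241%, 2.49% and 0.0120% of all genes.

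**Figure D1:**
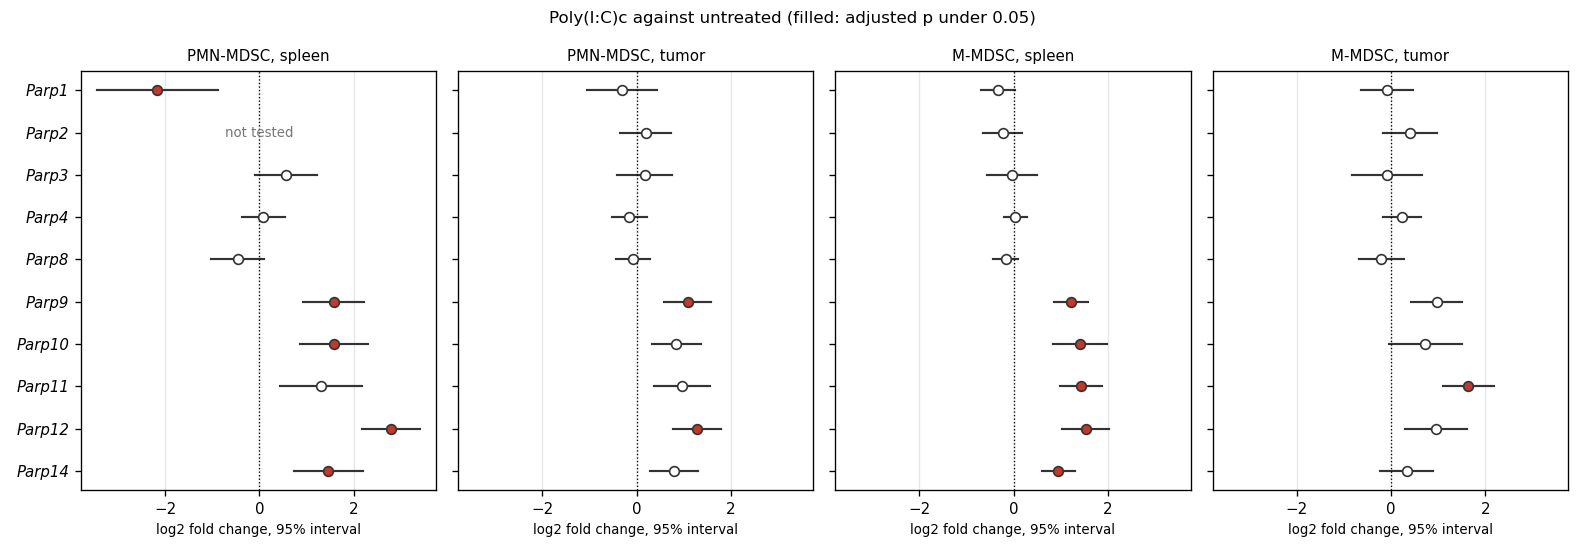
Change of each PARP member after poly(I:C)c treatment in the 4 MDSC populations, as log2 fold change of treated over untreated with 95% confidence intervals from edgeR. Filled points passed an adjusted p under 0.05; Parp12 in spleen PMN-MDSC stands farthest to the right at 2.79 and Parp1 farthest to the left at -2.16.

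Parp12, an interferon-induced zinc finger protein that restricts several RNA viruses, showed the largest change of the members. In spleen PMN-MDSC it was at 45.6, 51.5, 55.9 and 76.9 CPM in untreated and 239, 445 and 473 CPM in treated mice. The lowest treated library stood above every untreated one, and the fold change was 6.94 (log2 2.79, SE 0.27, 95% interval 2.18 to 3.41, edgeR adjusted p = 0.00179). It was called in 7 of 7 fits that left out 1 library. In spleen M-MDSC the untreated libraries held 92.5, 112, 114 and 126 CPM and the treated ones 215, 288, 335 and 482 CPM. These again did not overlap, and the change was 2.89-fold (log2 1.53, SE 0.22, edgeR adjusted p = 0.00154). Untreated spleen M-MDSC thus started higher than spleen PMN-MDSC, while both groups ended in a similar range after treatment.

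In tumor PMN-MDSC, Parp12 was at 54.3, 63.7, 66.3 and 70.3 CPM in untreated and 95.6, 144, 172 and 221 CPM in treated mice, a 2.44-fold rise (log2 1.29, SE 0.24, edgeR adjusted p = 0.0134). The groups did not overlap, and the call was kept in 7 of 8 fits without 1 library and lost without 1 untreated library, where 0 members passed in edgeR. In tumor M-MDSC the values were 74.0, 98.4, 101 and 127 CPM in untreated and 112, 232 and 245 CPM in treated mice. The lowest treated value lay inside the untreated range and came from the library with little Ly6c2. With it, the change was 1.93-fold (log2 0.95, SE 0.29) and did not pass (edgeR adjusted p = 0.111), and without it the log2 change was 1.23 and passed (edgeR adjusted p = 0.0166).

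The spleen and tumor effects of treatment on Parp12 in PMN-MDSC were compared by an interaction term. The tumor effect was smaller by 1.48 on the log2 scale (-1.48, SE 0.36, 95% interval -2.26 to -0.71, edgeR adjusted p = 0.0335), and Parp12 was the only member called among 10 tested, beside 3.50% of all genes. In spleen, its effect in PMN-MDSC exceeded that in M-MDSC by log2 1.35 (SE 0.36, 95% interval 0.58 to 2.12, edgeR adjusted p = 0.029), beside 10.9% of all genes. Both calls were fragile, being kept in 4 of 15 and 6 of 15 fits without 1 library, and the difference between cell types did not pass under upper-quartile scaling (log2 1.14, adjusted p = 0.0503) or with all 9 groups in one fit (log2 1.204, adjusted p = 0.0681). Both comparisons share the spleen PMN-MDSC libraries. Between spleen and tumor M-MDSC and between tumor PMN-MDSC and M-MDSC, edgeR and DESeq2 called 0 members, 1 member (Parp14) and 0 members had an unadjusted p under 0.05, and 0.790% and 0.0239% of all genes were called.

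**Figure D2:**
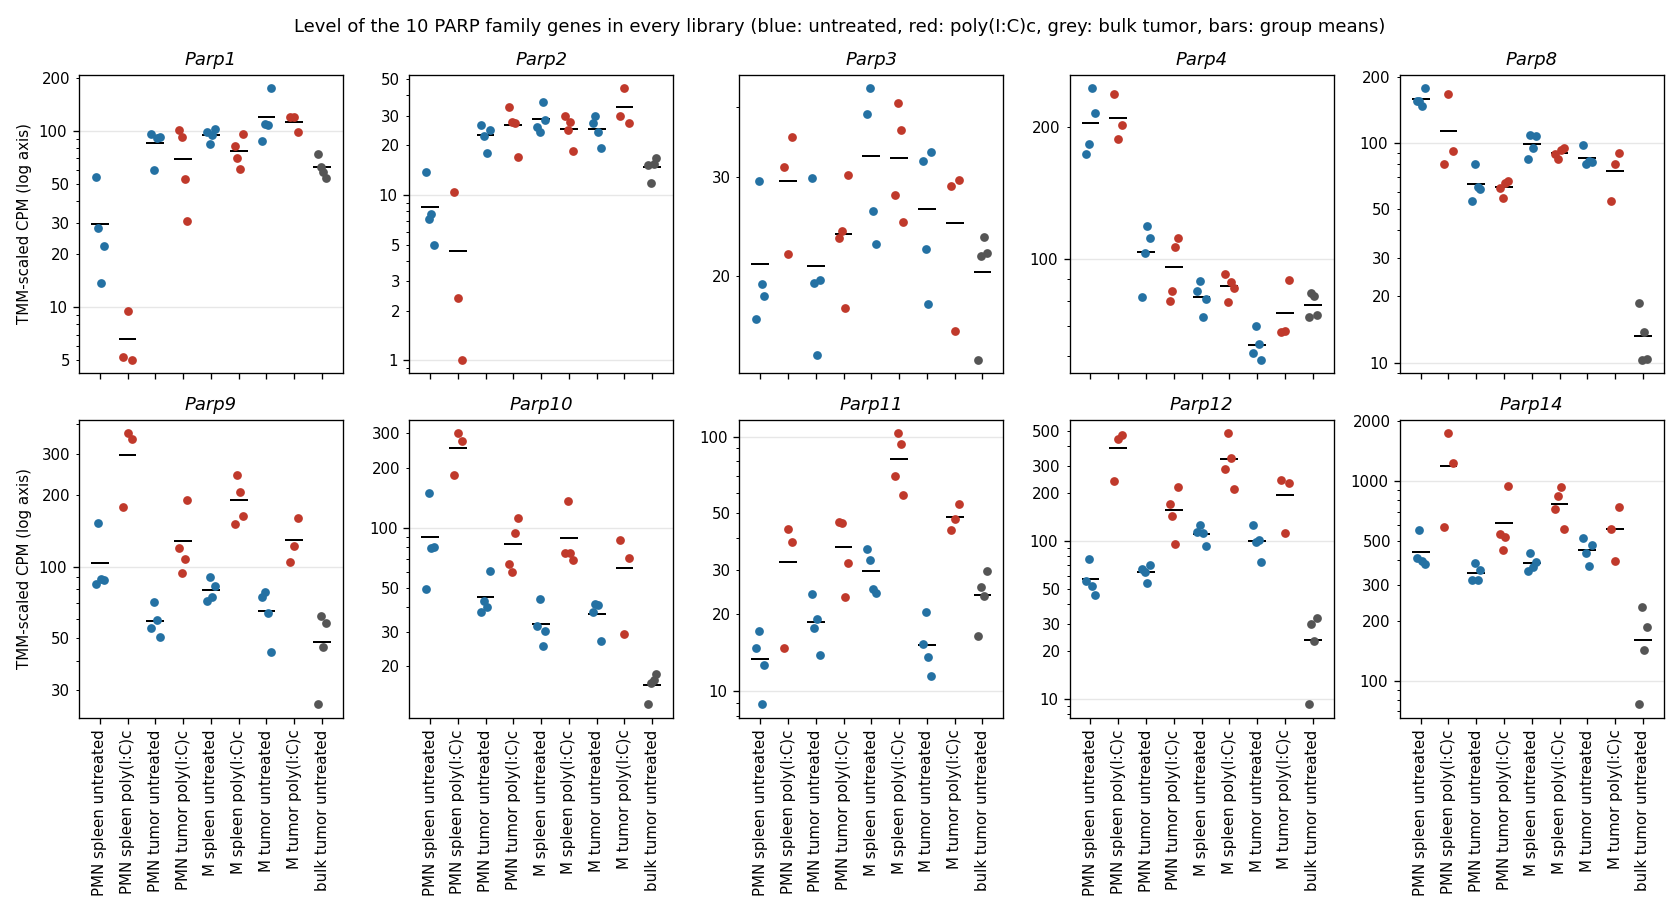
Level of each PARP member in every library, in CPM on a log axis, by group, with the group mean as a bar. The treated libraries of Parp12 in spleen PMN-MDSC, at 239 to 473 CPM, stand apart from the untreated ones at 45.6 to 76.9 CPM, while Parp3 spans 14.2 to 43.2 CPM over all 9 groups (each panel has its own axis).

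PARP9 carries macrodomains, which bind ADP-ribose, and acts in a complex with the ligase DTX3L. In spleen PMN-MDSC, Parp9 was at 84.7, 88.1, 88.9 and 152 CPM in untreated and 178, 346 and 367 CPM in treated mice. No treated library reached down into the untreated range, and the change was 2.98-fold (log2 1.58, SE 0.28, edgeR adjusted p = 0.0118). In spleen M-MDSC it went from 71.7, 74.5, 83.0 and 90.3 CPM to 151, 164, 206 and 243 CPM, or 2.32-fold (log2 1.21, SE 0.16, edgeR adjusted p = 0.000958), again with no overlap. In tumor PMN-MDSC it went from 50.2, 55.2, 59.3 and 70.9 CPM to 94.0, 108, 119.6 and 191 CPM, or 2.13-fold (log2 1.09, SE 0.23, edgeR adjusted p = 0.0276). Tumor M-MDSC held 43.4, 63.7, 74.0 and 78.1 CPM in untreated and 104, 122 and 161 CPM in treated mice. These did not overlap either, but the 1.96-fold change missed the threshold (log2 0.97, SE 0.24, edgeR adjusted p = 0.0603; 0.0657 without the library with little Ly6c2). Leaving out single libraries kept the Parp9 call in 6 of 7 fits in spleen PMN-MDSC, 5 of 8 in tumor PMN-MDSC and 8 of 8 in spleen M-MDSC.

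Dtx3l rose in the same 3 populations. In spleen PMN-MDSC it was at 190.3, 190.3, 231 and 433 CPM in untreated and 477, 1034 and 1064 CPM in treated mice. The highest untreated library came close to the lowest treated one, and the change was log2 1.77 (edgeR adjusted p = 0.018). In tumor PMN-MDSC the log2 change was 0.98 (adjusted p = 0.0276), in spleen M-MDSC 1.12 (adjusted p = 0.00363) and in tumor M-MDSC 0.59 (adjusted p = 0.222). Counts of Dtx3l per count of Parp9 averaged between 2.26 and 3.22 in the 8 MDSC groups and 1.52 in bulk tumor, and the 2.47 of untreated and 2.86 of treated spleen PMN-MDSC were alike in size.

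Parp14, a macrodomain protein that transfers single ADP-ribose units and cooperates with STAT6 in interleukin-4 signalling, had the highest mean level per length in all 9 groups and led in 32 of 34 libraries. In M-MDSC of treated spleens it stood level with Parp12 (82.8 ± 16.6 and 82.6 ± 28.3 CPM per kb, SD, n = 4), and Parp12 led in 1 library there. In spleen PMN-MDSC it was at 384, 396, 409.6 and 566 CPM in untreated and 587, 1234 and 1738 CPM in treated mice. The highest untreated and the lowest treated library lay close together, and the change was 2.77-fold (log2 1.47, SE 0.32, edgeR adjusted p = 0.0226). In spleen M-MDSC, values of 354, 370.2, 395 and 434 CPM in untreated and 576, 728, 845 and 934 CPM in treated mice were well separated, with a 1.92-fold rise (log2 0.94, SE 0.16, edgeR adjusted p = 0.00282). Tumor PMN-MDSC held 318, 320.4, 359 and 389 CPM and, after treatment, 450.2, 526, 545 and 942 CPM. Here too the groups did not overlap, but the 1.74-fold change did not pass in edgeR (log2 0.80, SE 0.23, adjusted p = 0.097). In tumor M-MDSC, 375, 438, 480.0 and 516 CPM stood beside 397, 577 and 745 CPM, and the overlapping groups differed by log2 0.33 (SE 0.25, edgeR adjusted p = 0.519; log2 0.54, adjusted p = 0.197 without the library with little Ly6c2). The spleen PMN-MDSC call was kept in 2 of 7 fits without 1 library and that in spleen M-MDSC in 8 of 8.

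Parp10 encodes a mono-ADP-ribosyltransferase first found as a MYC-binding protein. In spleen PMN-MDSC its untreated libraries held 49.3, 78.9, 80.0 and 150.2 CPM and the treated ones 186, 276 and 301 CPM. They did not overlap, and the rise was 2.99-fold (log2 1.58, SE 0.32, edgeR adjusted p = 0.018; kept in 4 of 7 fits without 1 library). Spleen M-MDSC went from 25.4, 30.1, 31.9 and 43.6 CPM to 69.3, 74.9, 74.9 and 137 CPM, a 2.65-fold rise (log2 1.41, SE 0.25, edgeR adjusted p = 0.00433). Tumor PMN-MDSC held 37.6, 39.8, 42.6 and 60.3 CPM in untreated and 59.8, 65.9, 93.8 and 113 CPM in treated mice. The highest untreated value passed the lowest treated one, and the 1.80-fold change did not pass (log2 0.85, SE 0.23, edgeR adjusted p = 0.0806). Tumor M-MDSC held 26.8, 37.6, 40.9 and 41.3 CPM in untreated and 29.1, 70.8 and 87.4 CPM in treated mice, where the low treated value again came from the library with little Ly6c2. The log2 change was 0.73 with it (SE 0.34, edgeR adjusted p = 0.289) and 1.08 without it (edgeR adjusted p = 0.0269).

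Parp11, a mono-ADP-ribosyltransferase of the nuclear envelope, was the only member called in tumor M-MDSC. It was at 11.5, 13.6, 15.2 and 20.3 CPM in untreated and 43.1, 47.3 and 54.1 CPM in treated mice. Every treated library stood above the untreated ones by a wide gap, also the one with little Ly6c2, and the rise was 3.12-fold (log2 1.64, SE 0.24, edgeR adjusted p = 0.0128; log2 1.66, adjusted p = 0.0126 without that library). The call was kept in 4 of 7 fits without 1 library and lost without either of 2 untreated libraries or 1 other treated library (adjusted p up to 0.062). In spleen M-MDSC, 24.3, 25.1, 32.6 and 36.3 CPM in untreated mice stood against 59.0, 70.2, 93.3 and 103 CPM in treated mice, a separated 2.69-fold rise (log2 1.43, SE 0.20, edgeR adjusted p = 0.00125).

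In PMN-MDSC the change of Parp11 missed the threshold in both compartments. Spleen libraries held 8.85, 12.6, 14.7 and 17.2 CPM in untreated and 14.8, 38.4 and 43.2 CPM in treated mice, and tumor libraries 13.9, 17.7, 19.1 and 24.1 CPM and 23.4, 31.7, 45.7 and 46.01 CPM. In each compartment 1 treated library overlapped the untreated range. The log2 changes were 1.32 (SE 0.38, edgeR adjusted p = 0.0598) and 0.96 (SE 0.27, edgeR adjusted p = 0.0861).

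Several of these values move together in single libraries. The lowest treated values of Parp9, Parp10, Parp11, Parp12 and Parp14 in spleen PMN-MDSC came from the same library, which also held 840 CPM of 11 cell cycle genes against 130 and 105 in the other 2. Without it, these 5 members were all called higher in spleen PMN-MDSC and Parp1 was not called, beside calls of 1002 of 7468 genes in all. DESeq2 called the same 5 members higher in spleen PMN-MDSC and in tumor PMN-MDSC, and Parp9, Parp11 and Parp12 in tumor M-MDSC. Over all genes it called 18.6%, 7.38% and 9.53% in that order, against 11.6%, 3.36% and 2.88% in edgeR. Treated spleen PMN-MDSC also held more neutrophil markers, 35633 to 39622 CPM against 13428 to 30179, and fewer erythroid ones, 0 to 5.22 CPM against 60.8 to 154, macrophage ones, 44.9 to 102 CPM against 272 to 779, and dendritic cell ones, 0 to 1.78 CPM against 12.1 to 31.7. Treated tumor PMN-MDSC held less of 6 monocyte markers, 1391 to 2670.1 CPM against 4493 to 8335 in untreated ones, and 2589.8 to 10218 CPM of neutrophil markers against 962 to 3248. Treated tumor M-MDSC also held less of the monocyte markers, 2256 to 4406 CPM against 8683 to 11540 in untreated ones, and treated spleen M-MDSC 2462 to 3736 CPM against 4881 to 7447. Ly6c2, which is among these markers, was at 793 to 1460 CPM in treated spleen PMN-MDSC against 44.1 to 118 in untreated ones. In spleen M-MDSC it was at 669 to 870 CPM against 94.2 to 170, and in tumor PMN-MDSC at 68.1 to 278 CPM against 1.91 to 10.9. Untreated tumor M-MDSC held 40.9 to 143 CPM of Ly6c2, beside the treated values given above. The part of these marker differences in the PARP changes was not tested.

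Parp1, the founding sensor of DNA strand breaks, was at 13.7, 22.2, 28.03 and 55.1 CPM in spleen PMN-MDSC of untreated and at 5.05, 5.22 and 9.47 CPM in those of treated mice. The treated values rest on 10, 6 and 16 counts. All 3 treated libraries lay under the lowest untreated one, and Parp1 was 4.47-fold lower (log2 -2.16, SE 0.56, 95% interval -3.44 to -0.88, edgeR adjusted p = 0.0419). The call was kept in 1 of 7 fits without 1 library. The untreated library with the most Parp1 also held the most macrophage markers, 779 CPM, and that with the least held the least, 272 CPM, and their part was not tested. Cell cycle genes summed to 267 to 558 CPM in untreated and 105 to 840 CPM in treated spleen PMN-MDSC, and 0 of 8 tested passed there (edgeR; lowest adjusted p, Pcna 0.0578 at log2 -1.07). In the other populations Parp1 changed by log2 -0.30 (tumor PMN-MDSC), -0.34 (spleen M-MDSC) and -0.08 (tumor M-MDSC), with adjusted p of 0.689, 0.175 and 0.891 in edgeR. The Parp1 effect in spleen PMN-MDSC was below that in spleen M-MDSC by log2 1.75 in size (-1.75, SE 0.55), which missed the threshold in edgeR (adjusted p = 0.0544). At the same threshold it passed in DESeq2 (adjusted p = 0.0136) and in edgeR with all 9 groups in one fit (0.0197), with upper-quartile (0.0361) or RLE scaling (0.0430), and when lowly counted genes were kept (0.000346). In the same interaction 3 of 10 cell cycle genes were called lower, Pcna, Mcm3 and Mcm6, with a median of -1.50 over the 10, and their part was not tested.

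Parp2, the second polymer-forming break sensor, averaged under 25 counts in spleen PMN-MDSC and was not tested there, with 4.98, 7.19, 7.65 and 13.8 CPM in untreated and 1.01, 2.37 and 10.4 CPM in treated mice. One treated library lay inside the untreated range, and when lowly counted genes were kept the log2 change was -0.98 (edgeR adjusted p = 0.478). In the other 3 populations its log2 change was 0.20, -0.23 and 0.41, with edgeR adjusted p from 0.415 to 0.729, and without the library with little Ly6c2, which held 44.1 CPM against 27.2 and 30.1 in the other 2, the last was 0.17 (edgeR adjusted p = 0.796). Parp3, which attaches single ADP-ribose units at DNA breaks, changed by log2 0.57 in spleen PMN-MDSC (95% interval -0.09 to 1.23) and by -0.08 to 0.17 elsewhere, without a call.

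Parp4, a component of the cytoplasmic vault particle, and Parp8, a little-studied mono-ADP-ribosyltransferase, were not called for treatment in any population. Parp4 was at 174 to 245 CPM in untreated and 188 to 238 CPM in treated spleen PMN-MDSC, so that one range lay within the other. Its log2 changes ran from -0.15 to 0.23, and those of Parp8 from -0.46 to -0.08. The 95% intervals of Parp4 in spleen PMN-MDSC, -0.37 to 0.55, and in spleen M-MDSC, -0.21 to 0.28, exclude the 2-fold change that several other members passed. Parp4 held the pair of ISRE cores printed above.

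Levels in untreated mice were compared next, between compartments and between cell types. In PMN-MDSC, 2 members were higher in tumor than in spleen (29.4% of all genes tested) and 4 were lower (29.7%), and in M-MDSC 0 were higher (15.7%) and 2 were lower (12.7%) by edgeR. DESeq2 called the same members in both cases, beside 4828 of 7971 and 2535 of 8298 genes in all. Between cell types, 3 members were higher and 5 lower in PMN-MDSC than in M-MDSC of spleen (30.9% and 33.4%), and 1 was higher and 1 lower in tumor (7.25% and 5.73%). These comparisons share libraries with each other and with the treatment comparisons. The groups compared also share mice, by the numbers in the sample titles, but were fitted as unpaired.

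**Figure D3:**
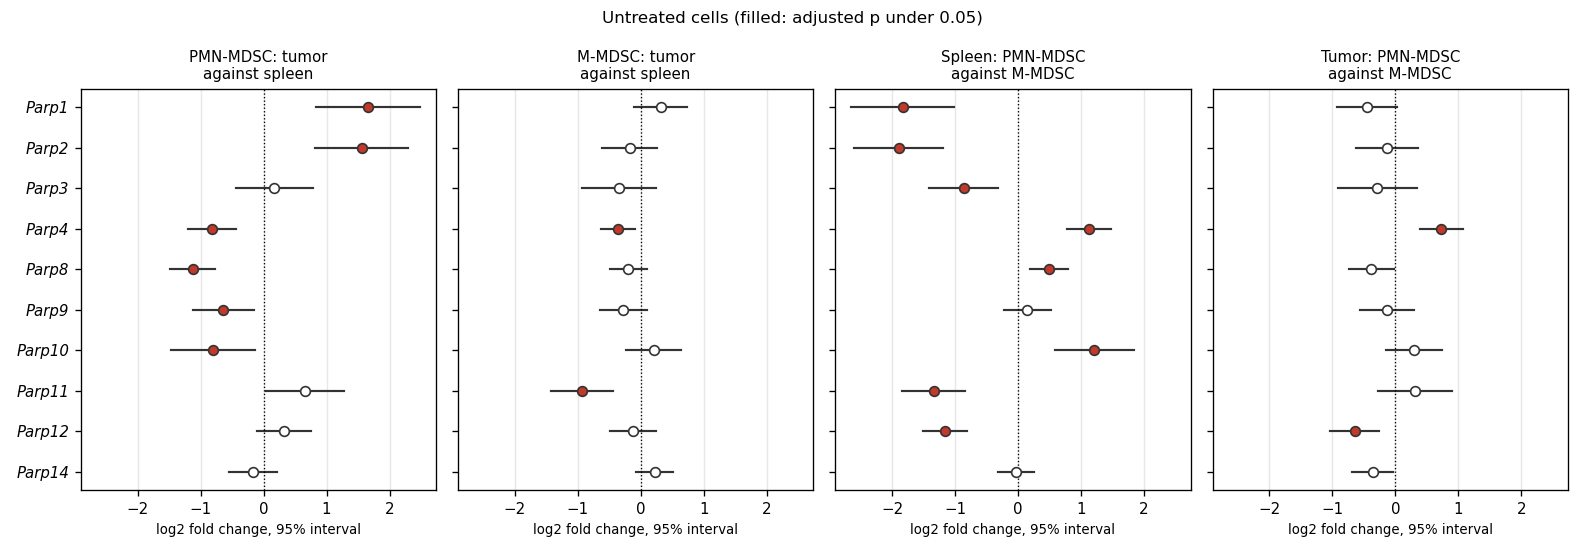
Differences of each PARP member between untreated groups, as log2 fold change with 95% confidence intervals from edgeR, for tumor against spleen in each cell type and for PMN-MDSC against M-MDSC in each compartment. Filled points passed an adjusted p under 0.05; Parp1 lies at 1.65 for tumor against spleen PMN-MDSC and at -1.83 for PMN-MDSC against M-MDSC of spleen.

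The break sensors were low in spleen PMN-MDSC. Against the 13.7 to 55.1 CPM there, Parp1 stood at 60.3, 91.7, 92.8 and 96.8 CPM in untreated tumor PMN-MDSC and at 84.8, 94.5, 98.4 and 103 CPM in untreated spleen M-MDSC. Neither group overlapped spleen PMN-MDSC, and the tumor PMN-MDSC were 3.15-fold higher (log2 1.65, SE 0.38, edgeR adjusted p = 0.00344) while spleen PMN-MDSC were 3.56-fold below spleen M-MDSC (log2 -1.83, SE 0.36, edgeR adjusted p = 0.00173). Parp2 showed the same order, 2.94-fold higher in tumor than in spleen PMN-MDSC (log2 1.56, edgeR adjusted p = 0.00236) and 3.72-fold lower in PMN-MDSC than in M-MDSC of spleen (log2 -1.90, edgeR adjusted p = 0.000641). Parp3 was 1.81-fold lower in spleen PMN-MDSC than in spleen M-MDSC (log2 -0.86, edgeR adjusted p = 0.0117), although the groups overlapped. Cell cycle genes differed in the same directions, with 7 of 9 higher in tumor than in spleen PMN-MDSC and 8 of 10 lower in PMN-MDSC than in M-MDSC of spleen. Their part in the Parp1 and Parp2 differences was not tested.

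Parp4 and Parp8 ran the other way. In untreated spleen PMN-MDSC, Parp4 was at 174, 183, 216 and 245 CPM, in tumor PMN-MDSC at 81.6, 103, 111 and 119 CPM, in spleen M-MDSC at 73.5, 80.8, 84.4 and 88.8 CPM and in tumor M-MDSC at 58.7, 61.0, 63.7 and 70.2 CPM. Spleen PMN-MDSC stood above all others. Parp4 was 1.76-fold lower in tumor than in spleen PMN-MDSC (log2 -0.82, edgeR adjusted p = 0.00222) and 1.28-fold lower in M-MDSC (log2 -0.36, edgeR adjusted p = 0.0492), and it was higher in PMN-MDSC than in M-MDSC of spleen (2.19-fold, log2 1.13, edgeR adjusted p = 0.000216) and of tumor (1.66-fold, log2 0.73, edgeR adjusted p = 0.00948). The small difference between M-MDSC of tumor and spleen did not pass without a filter on low counts or with all 9 groups in one fit, and it was kept in 2 of 8 fits without 1 library.

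Parp8 was at 146, 155, 155 and 177 CPM in spleen PMN-MDSC and at 54.6, 61.7, 63.2 and 80.3 CPM in tumor PMN-MDSC of untreated mice, with a wide gap between them. The difference was 2.18-fold (log2 -1.12, SE 0.16, edgeR adjusted p = 0.000218). Against spleen M-MDSC at 84.8 to 108 CPM, spleen PMN-MDSC were 1.404-fold higher (log2 0.49, edgeR adjusted p = 0.0105), a call that upper-quartile scaling ended. Macrophage markers, given above, moved opposite to Parp4 and Parp8 between spleen and tumor PMN-MDSC, and their part was not tested.

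Among the interferon-inducible members, untreated spleen PMN-MDSC held less Parp12 and Parp11 and more Parp10 than spleen M-MDSC. Parp12 was 2.23-fold lower (45.6 to 76.9 CPM against 92.5 to 126 CPM; log2 -1.16, edgeR adjusted p = 0.000201) and Parp11 was 2.53-fold lower (8.85 to 17.2 CPM against 24.3 to 36.3 CPM; log2 -1.34, edgeR adjusted p = 0.000704). Parp10 was 2.32-fold higher (49.3 to 150.2 CPM against 25.4 to 43.6 CPM; log2 1.21, edgeR adjusted p = 0.00413). Ranges did not overlap for any of these. Parp9 and Parp14 were not called, with log2 differences of 0.15 (95% interval -0.23 to 0.53) and -0.03 (95% interval -0.32 to 0.26).

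In tumor, Parp12 was again lower in PMN-MDSC than in M-MDSC, by 1.56-fold (log2 -0.64, SE 0.18, edgeR adjusted p = 0.032), a call kept in 2 of 8 fits without 1 library. Between compartments, Parp9 and Parp10 were 1.55-fold and 1.75-fold lower in tumor than in spleen PMN-MDSC (log2 -0.64 and -0.80, edgeR adjusted p = 0.0265 and 0.0392), and the Parp10 groups overlapped. Leaving out single libraries kept the first call in 4 of 8 fits and the second in 2 of 8. Under upper-quartile scaling, which shifted the median of all genes by 0.16, these calls were replaced by higher Parp11 and Parp12 in tumor. Parp11 was 1.91-fold lower in tumor than in spleen M-MDSC (11.5 to 20.3 CPM against 24.3 to 36.3 CPM; log2 -0.93, SE 0.22, edgeR adjusted p = 0.008).

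Bulk tumor, in which epithelial markers summed to 3592 to 5764 CPM against 87.4 to 597 CPM in tumor PMN-MDSC of untreated mice, held less of most members than tumor MDSC. Against tumor PMN-MDSC 7 members were called by edgeR, all of them lower, where 69.7% of all 11138 genes tested were called, 3652 lower and 4115 higher. Against tumor M-MDSC 6 members were called, all of them lower under TMM scaling, where 69.2% of 11022 genes were called, 3420 lower and 4210 higher. DESeq2 gave the same counts of members, beside 7873 of 11138 and 7941 of 11022 genes in all. Under upper-quartile scaling, which moved the median of all genes by 0.20 against tumor M-MDSC, Parp4 (log2 0.37, edgeR adjusted p = 0.0383) and Parp11 (log2 0.71, adjusted p = 0.0333) were called higher in bulk tumor beside the 6 lower ones. The median difference of the members was -0.73 and -0.98 on the log2 scale, beside 0.11 and 0.17 over all genes.

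Parp8 differed most, at 10.3, 10.3, 13.8 and 18.7 CPM in bulk tumor, under every MDSC library of tumor. It was 5.56-fold lower than in tumor PMN-MDSC (log2 -2.48, SE 0.23, edgeR adjusted p = 1.63e-06) and 7.03-fold lower than in tumor M-MDSC (log2 -2.81, SE 0.22, edgeR adjusted p = 6.13e-07). Parp12 was at 9.22, 23.4, 29.7 and 32.6 CPM and 3.07-fold and 4.69-fold lower, Parp10 at 12.9, 16.5, 17.1 and 18.2 CPM and 3.18-fold and 2.53-fold lower, and Parp14 at 76.0, 143, 186 and 233 CPM and 2.49-fold and 3.10-fold lower, each with an edgeR adjusted p of at most 0.00149. One bulk library held the lowest level of 7 members, all but Parp1, Parp2 and Parp8, and the highest of Parp1 and Parp8. Parp1 and Parp2 were 1.58-fold and 1.75-fold lower than in tumor PMN-MDSC and 2.08-fold and 1.88-fold lower than in tumor M-MDSC. Parp4 was 1.52-fold lower than in tumor PMN-MDSC (edgeR adjusted p = 0.00438) and differed by log2 0.16 from tumor M-MDSC, which was not called (95% interval -0.17 to 0.49). The calls of Parp1 and Parp4 against tumor PMN-MDSC were lost under upper-quartile scaling and, with that of Parp2, without a filter on low counts. Parp3, Parp9 and Parp11 were not called against either with TMM scaling. Without 1 bulk library, Parp9 was called lower than in tumor PMN-MDSC (edgeR adjusted p = 0.048). Against tumor M-MDSC, Parp11 was also called higher without either 1 untreated M-MDSC library or 1 bulk library, and Parp9 was called lower without 1 other M-MDSC library and with all 9 groups in one fit (log2 -0.61, edgeR adjusted p = 0.0452).

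Ordered by group mean, the levels of Parp9, Parp10, Parp12 and Parp14 were highest in PMN-MDSC of treated spleens and lowest in bulk tumor, with ratios of 6.20, 15.7, 16.3 and 7.44 between these groups. The highest place depends on the scaling. With CPM by library total, M-MDSC of treated spleens stood above PMN-MDSC of treated spleens for Parp9 (216 and 203 CPM), Parp12 (372 and 264 CPM) and Parp14 (874 and 801 CPM), and the ratio for Parp10 was 10.1. With TMM scaling these 2 groups overlapped for Parp9, Parp12 and Parp14. Parp11 was highest in M-MDSC of treated spleens and lowest in PMN-MDSC of untreated spleens (6.09-fold). Parp1 and Parp2 were lowest in PMN-MDSC of treated spleens, 18.3-fold and 7.34-fold below the highest group mean, that of M-MDSC of untreated and of treated tumors. By library total these ratios were 27.5 and 11.1, and the highest mean of Parp1 was in M-MDSC of treated tumors. The lowest mean of Parp1 rests on 6 to 16 counts per library. Without the library with little Ly6c2, Parp2 was highest in M-MDSC of untreated spleens (6.23-fold). Without the treated spleen PMN-MDSC library of most cell cycle genes, which held 12 counts of Parp2 against 4 and 2 in the other 2, the Parp2 ratio was 20.02. In the order of Parp1, every pair of neighbouring groups overlapped except PMN-MDSC of untreated and of treated spleens. Parp3 had the narrowest span, 20.3 ± 4.17 CPM in bulk tumor to 32.7 ± 9.85 CPM in M-MDSC of untreated spleens (SD, n = 4 each), and all its neighbouring groups overlapped. By library total its lowest group was PMN-MDSC of untreated spleens (16.9 CPM).

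Per kilobase of exon, a scale that allows members to be compared with each other, Parp14 led with 47.2 CPM per kb in untreated and 127 CPM per kb in treated spleen PMN-MDSC. Parp12 stood at 14.4 CPM per kb in untreated spleen PMN-MDSC, rank 6 of 10, and at 96.5 CPM per kb after treatment, rank 2. Parp4 was at 31.3 and 32.03 CPM per kb there (25.8 and 22.3 by library total) and went from rank 2 to rank 5. The lowest members were Parp11 in untreated spleen PMN-MDSC (1.90 CPM per kb), Parp1 and Parp2 in treated spleen PMN-MDSC (1.24 and 1.27 CPM per kb) and Parp8 in bulk tumor (1.496 CPM per kb).

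The rest of the pathway was read from lists of genes. Among the type I interferon transcription factors, which switch on interferon-inducible genes, Irf7, Stat2, Irf9 and Irf1 are described here. Irf7 (log2 2.75) and Stat2 (2.67) rose in spleen PMN-MDSC, where Irf9 did not pass (0.87, edgeR adjusted p = 0.0792). In tumor PMN-MDSC Irf7 (3.88), Stat2 (1.42) and Irf9 (1.08) rose, and in spleen M-MDSC Irf7 (2.94) and Stat2 (1.46). Irf1 was not called in any of the 4 populations (log2 -0.43 to 0.41). In tumor M-MDSC Irf7 rose (3.01), beside a log2 change of 0.76 for Stat2 that did not pass in edgeR (adjusted p = 0.132). Without the library with little Ly6c2, Stat2 passed there (log2 0.99, edgeR adjusted p = 0.0282) and Irf7 was at 3.21. With all libraries, Stat2 was called in the same 3 populations as Parp12, and Irf7 in all 4.

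Of 6 further PARP genes, 5 were tested in each population. Zc3hav1, the antiviral zinc finger protein ZAP, rose in spleen PMN-MDSC (log2 0.83, edgeR adjusted p = 0.0499) and in spleen M-MDSC (0.50, adjusted p = 0.0146), and was at log2 0.36 in tumor PMN-MDSC and 0.0060 in tumor M-MDSC, where it did not pass (edgeR adjusted p = 0.992). Tiparp, a target of the aryl hydrocarbon receptor, rose in spleen M-MDSC (log2 1.06, adjusted p = 0.00842) and fell in tumor M-MDSC (-1.09, adjusted p = 0.0455), a call lost without the library with little Ly6c2 (-0.95, edgeR adjusted p = 0.0657). Its spleen and tumor effects in M-MDSC differed (log2 -2.15, edgeR adjusted p = 0.0115; -2.01, adjusted p = 0.0199 without that library). The tankyrases, which regulate WNT signalling and telomeres, were not called, with log2 changes of 0.36 for Tnks in spleen PMN-MDSC and -0.30 and -0.13 for Tnks2 in the tumor populations. Parp6 was not called either, at -0.36, -0.50 and -0.13 in tumor PMN-MDSC, spleen M-MDSC and tumor M-MDSC.

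Enzymes that remove ADP-ribose were not called in any population, with 3 or 4 of 6 tested. Parg, which degrades the polymer, changed by log2 0.14, -0.17, 0.09 and -0.12 in spleen PMN-MDSC, tumor PMN-MDSC, spleen M-MDSC and tumor M-MDSC, Oard1 by -0.33, 0.14, -0.26 and 0.79, and Adprh by 0.16, -0.02, 0.23 and -0.31.

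NAD, the substrate of PARP enzymes, is made by salvage from nicotinamide through Nampt. Of 8 genes of NAD metabolism 2 or 3 were tested, and Nampt rose in spleen M-MDSC (log2 1.09, edgeR adjusted p = 0.00352). It was at 0.89, 0.23 and 0.27 in spleen PMN-MDSC, tumor PMN-MDSC and tumor M-MDSC, which did not pass. Nadk changed by 0.53, 0.74, 0.35 and 0.58, Nmrk1 by 0.32 in spleen PMN-MDSC and Nadsyn1 by 0.19 in spleen M-MDSC, all without a call. Cell cycle genes, given above for spleen PMN-MDSC, included Mcm6 at -1.10 and Mcm3 at -1.14 there. They had 0 of 9 calls in tumor PMN-MDSC (Mcm4 -0.27, Mcm5 0.25, Mcm3 -0.20), 1 of 11 in spleen M-MDSC (Mcm3 0.89, with Mcm5 0.82 and Mcm4 0.68 not called) and 1 of 9 in tumor M-MDSC (Mcm6 1.73, with Mcm7 1.76 and Pcna 0.79 not called). Without the library with little Ly6c2, Mcm5 (1.78) and Mcm7 (1.93) passed in tumor M-MDSC beside Mcm6 (1.86).

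Position was looked at through the nearest tested gene on each side of every member. These were 19 genes that are no members, of which 2 rose and 2 fell in spleen PMN-MDSC, 1 rose in tumor PMN-MDSC, 3 rose and 3 fell in spleen M-MDSC and 1 rose and 2 fell in tumor M-MDSC. Over all genes tested the shares that rose and fell were 6.10% and 5.52%, 2.29% and 1.07%, 9.96% and 9.48%, and 1.82% and 1.06% in that order, and so few neighbours allow no reading against them. Without the library with little Ly6c2, Emb, next to Parp8, also passed as lower in tumor M-MDSC. Dtx3l was among those that rose in spleen PMN-MDSC, tumor PMN-MDSC and spleen M-MDSC. Next to Parp11, Ccnd2, which encodes cyclin D2, rose in spleen M-MDSC (log2 5.09) and in tumor M-MDSC (1.81, or 1.96 without the library with little Ly6c2). Next to Parp8, Ndufs4 rose in spleen PMN-MDSC (0.93), Itga1 fell in spleen and tumor M-MDSC (-1.81 and -3.61) and Emb fell in spleen M-MDSC (-1.30). Tep1 beside Parp2 fell in spleen PMN-MDSC (-2.17), and Grina beside Parp10 rose in spleen M-MDSC (1.32). Next to Parp12, Tbxas1 fell in spleen PMN-MDSC (log2 -1.31) and Kdm7a fell in spleen and tumor M-MDSC (-1.27 and -1.24, the latter -1.17 without the library with little Ly6c2).

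The genes whose pattern lay closest to the 4 members of widest range were found over the 9 group means of centred log2(CPM + 1), among 9790 genes that averaged 25 or more counts. For Parp12 they were Stat2, Ifih1, which encodes MDA5, and Rnf213, with root-mean-square differences of 0.16, 0.21 and 0.25 on the log2 scale. For Parp10 they were Rnf114 (0.26), N4bp1 (0.27) and Rnf34 (0.27). For Parp1 they were Mavs (0.17), Heatr1 (0.18) and Rrp9 (0.19), and for Parp8 they were Csk (0.19), Cbl (0.20) and Zfp710 (0.21). Likeness over 9 means of the same libraries is a description and shares their depth and cell mixture.

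**Figure D4:**
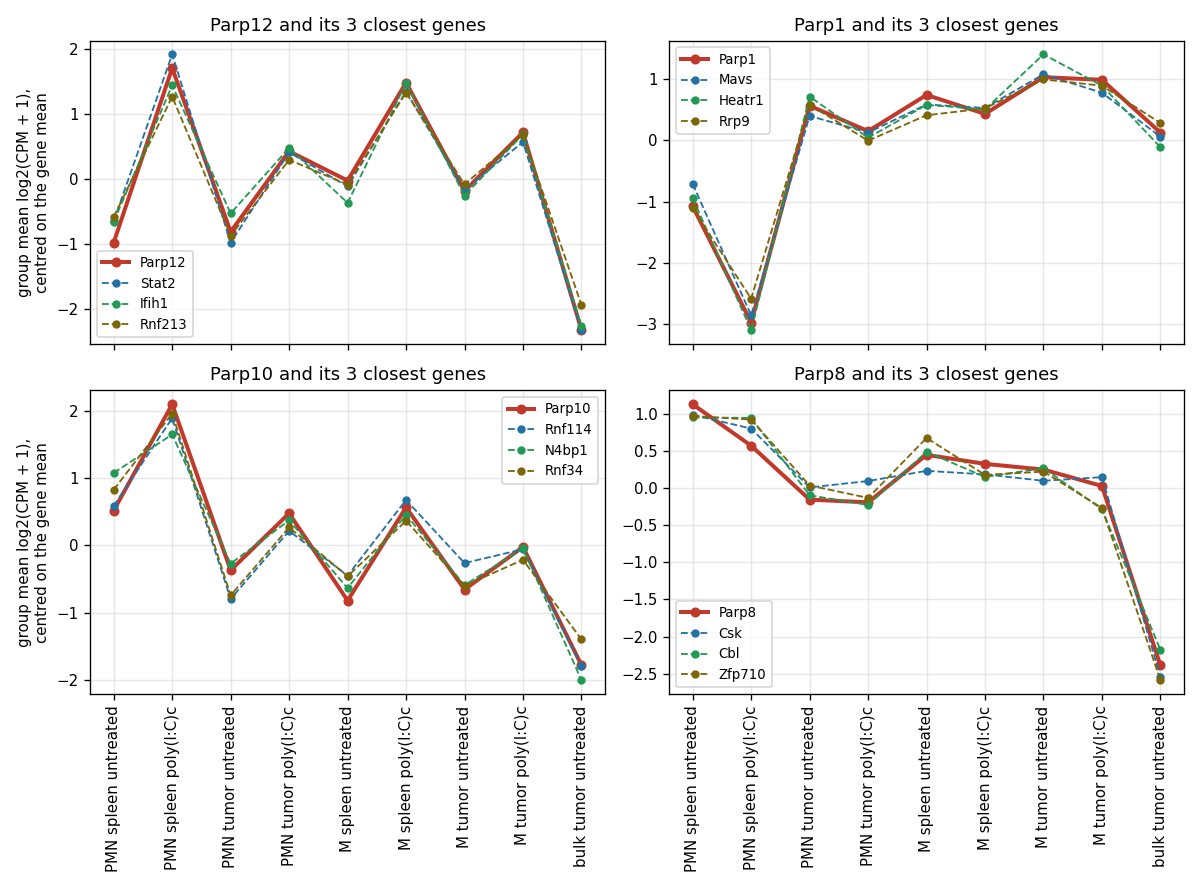
Centred log2(CPM + 1) over the 9 groups for Parp12, Parp1, Parp10 and Parp8, each with its 3 closest genes. Parp12 and Stat2, at a root-mean-square difference of 0.16, lie close together in all 9 groups with TMM scaling, and both are lowest in bulk tumor.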

How the data were processed

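RNA was sequenced from 30 MDSC and 4 bulk tumor libraries (SMARTer Stranded Total RNA-Seq Pico kit, rRNA depleted, PCR without molecular identifiers, so that precision covers counting error and mouse-to-mouse spread together). The deposited values are unnormalized fragment counts per gene, which the authors mapped to mm10 with ContextMap and BWA and counted by strand with featureCounts (Subread 1.4.6-p3 in the processing notes). The name of each column gave its cell type, its compartment and whether the mouse was treated. Members and lists were chosen with earlier results of these data known. All 10 members are described in every comparison, with the 3 genes of smallest adjusted p of each list, of which some genes and 1 list are not reported here.

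Each comparison was fitted on its own groups with edgeR 4.0.16 in R 4.3.3 (TMM scaling, robust quasi-likelihood F-test, two-sided), over genes that averaged 25 or more counts. P-values were adjusted over all genes tested (Benjamini-Hochberg), and the threshold was 0.05. Effects were compared by interaction terms. Alternatives were DESeq2 1.42.0, RLE and upper-quartile scaling, no filter, all 9 groups in one fit, a stricter rule (0.001 and 2-fold), CPM by library total and each library left out. The code was tested on simulated counts. Exon lengths and positions came from GENCODE M21 (GRCm38), whereas the authors counted on Gencode v16. Among 48 pairs of libraries of the same group, counts differed beyond sampling noise (chi-square per degree of freedom 6.88 to 55.8), and 0 pairs were identical. Proteins of the members were not compared here.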

Additional observations from a re-analysis of the deposited data

Results flagged for a closer look

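In 5 of 70 groups of 4 libraries, 1 library stood far from the other 3 for its group's range (Dixon's test), where chance alone gives 3.5. Parp1 was at 60.3 CPM in 1 tumor PMN-MDSC library of untreated mice, with the others at 91.7 to 96.8 CPM. Parp8 was at 98.0 CPM in 1 tumor M-MDSC library of untreated mice, with the others at 80.1 to 83.1 CPM. In untreated spleen PMN-MDSC, Parp9 was at 152 CPM with the next at 88.9 CPM, and Parp14 at 566 CPM with the next at 409.6 CPM, both in the same library. Parp10 was at 137 CPM in 1 spleen M-MDSC library of treated mice, with the others at 69.3 to 74.9 CPM. The treatment effect on Parp12 differed between groups by an interaction term, by log2 -1.48 in tumor against spleen PMN-MDSC and by log2 1.35 in PMN-MDSC against M-MDSC of spleen.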

How the results depend on the processing

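No paired analysis was possible because the columns carry a running number and not the number of the mouse. Counts of members called that moved by over 1.5 times are given here, with the count of the tests above in brackets, and the others stayed within 1.5 times. For treatment, the rule of an adjusted p under 0.001 and at least 2-fold gave 0 (5) in spleen and 0 (2) in tumor PMN-MDSC. In M-MDSC it gave 1 (5) in spleen and 0 (1) in tumor, with the shares of all genes given above. For tumor against spleen it gave 1 (6) in PMN-MDSC and 0 (2) in M-MDSC, beside 1727 of 7971 and 714 of 8298 genes in all. For PMN-MDSC against M-MDSC it gave 4 (8) in spleen and 0 (2) in tumor, beside 1993 of 8579 and 126 of 7623 genes. For bulk tumor against PMN-MDSC it gave 3 (7), beside 4514 of 11138 genes. Both interactions of Parp12 had 0 (1), beside 0 of 8047 and 10 of 8417 genes. Without a filter, treatment counts were 5 in tumor PMN-MDSC and 3 in tumor M-MDSC. Of all genes tested, 2.91% (3.36%) and 4.10% (2.88%) were called in these 2 populations without a filter, which tested 29685 (8308) and 25966 (8360) genes, and 7.38% and 9.53% in DESeq2. Elsewhere, no filter gave 1 member for tumor against spleen M-MDSC (3662 of 24414 genes in all) and 4 for bulk tumor against PMN-MDSC (11698 of 32174). It gave 2 members for each interaction of Parp12, with Parp1 added (676 of 33775 and 1590 of 31182 genes). DESeq2 gave 5 members for treatment in tumor PMN-MDSC and 3 in tumor M-MDSC. For the treatment interaction of cell types in spleen, DESeq2 gave 2 (1300 of 8417 genes) and RLE scaling gave 2 (908 of 8417 genes). All 9 groups in one fit gave 2 for treatment in tumor M-MDSC (809 genes in all) and 1 for tumor against spleen M-MDSC (1822 of 8298 genes). This fit also gave 1 for PMN-MDSC against M-MDSC in tumor (640 of 7623 genes) and 2 for the compartment interaction in PMN-MDSC (537 of 8047 genes).

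Leaving out single libraries gave 1 to 5, 0 to 3, 5 to 5 and 0 to 3 members for treatment in spleen PMN-MDSC, tumor PMN-MDSC, spleen M-MDSC and tumor M-MDSC, where 307 to 1002, 110 to 276, 1088 to 1808 and 30 to 531 of all genes were called. For tumor against spleen it gave 4 to 7 (PMN-MDSC) and 1 to 2 (M-MDSC), beside 4103 to 4916 and 1779 to 2767 of all genes. For cell types it gave 8 to 8 (spleen) and 1 to 2 (tumor), beside 4749 to 5814 and 607 to 1244 genes. For bulk tumor it gave 7 to 8 (against PMN-MDSC) and 6 to 7 (against M-MDSC), beside 7174 to 7705 and 6930 to 8111 genes. The interactions had 0 to 2, 0 to 0, 0 to 3 and 0 to 0 members. For treatment the lowest counts came without 1 treated library in spleen PMN-MDSC, without 1 untreated library in tumor PMN-MDSC, and without any of 3 libraries in tumor M-MDSC.

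Upper-quartile scaling moved the median of all genes by -0.17 in treated spleen PMN-MDSC and -0.25 between cell types in spleen, and the share of higher calls with it, 336 of 943 against 443 of 844 and 2042 of 5757 against 2655 of 5523. For M-MDSC of tumor against spleen the split was 1030 of 2620 against 1302 of 2357, and for the treatment interaction of cell types in spleen 200 of 926 (RLE 284 of 908) against 371 of 914. Uncalled values near 0 changed sign. Upper-quartile scaling gave -0.084 for Parp4 under treatment in spleen PMN-MDSC, -0.085 for Parp9 between cell types in spleen, 0.062 for Parp3 in bulk tumor against PMN-MDSC, 0.0029 for Parp8 between the M-MDSC treatment effects and -0.063 for Parp4 between the spleen treatment effects. Parp14 between cell types in spleen became 0.046 (RLE), 0.044 (DESeq2) and 0.033 (9 groups in one fit), Parp3 in bulk tumor 0.00093 (no filter) and Parp4 between the spleen effects -0.020 (9 groups). Of 695 values of single members under the alternatives, 645 kept direction and side of the threshold, 27 newly passed it, 13 no longer did and 10 changed sign. With CPM by library total, 75 of 90 group means moved by less than 1 SD. Of the median changes of the members under treatment, 19 moved by less than the members' median SE under the alternatives, and 1 moved by more.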
